A study of Homo sapiens with 9 samples.

Results

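PDE1C and 9 other genes of cyclic nucleotide phosphodiesterases (PDE1A, PDE3A, PDE4A, PDE4B, PDE4D, PDE5A, PDE7A, PDE8A and PDE10A) were followed in a bronchial epithelial cell line, BEAS-2B, after contact with condensed e-cigarette aerosol. They were 10 of the 63187 genes in the count table, and 9 of them passed the filter on low counts, which asked for 10 counts or more in 3 or more libraries. The genes were chosen by their measured changes in these libraries, with PDE1C as the lead, so their differences are described without p-values. Test outcomes of members appear only as counts, or as calls kept or lost under other settings. Nothing is read from those outcomes. The line is immortalized and was grown from normal human bronchial epithelium. Its cells were left in medium alone for 24 h (control), or were given for 24 h a 2% (v/v) dilution of the aerosol condensate of a carrier liquid of propylene glycol and vegetable glycerol only (PG/VG) or of a commercial liquid that also held nicotine at 18 mg/mL and a Virginia tobacco flavor (EC). Each condition had 3 libraries of poly-A selected RNA, numbered 2, 3 and 4, and the labels give the same number as the batch, so that every batch held 1 library of each condition. Nicotine and flavor were present together in EC and absent together from PG/VG, and their parts cannot be told apart.

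Phosphodiesterases break down cAMP and cGMP, the second messengers that G protein-coupled receptors and adenylyl or guanylyl cyclases produce. They differ in substrate: PDE4, PDE7 and PDE8 enzymes act on cAMP, PDE5A on cGMP, and PDE1, PDE3 and PDE10A enzymes on both. PDE1 enzymes are switched on by calcium and calmodulin, and PDE1C is known from proliferating smooth muscle cells. In airway cells cAMP is known for relaxing smooth muscle and for driving ciliary beating and chloride secretion, and PDE4 enzymes are the targets of the anti-inflammatory drug roflumilast.

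PDE1C and PDE4B had the lowest and the highest log2 fold change of the members in EC vs. control, and the bases before a start site of each are shown for that reason. The sequences are from RefSeq on GRCh38.p14, 5′ to 3′ on the strand of the gene. PDE1C (ENSG00000154678) is on the minus strand of chromosome 7, and the window printed is chr7:32071437-32071686, the 250 bases before a start site 1029 bases upstream of that of the canonical transcript. PDE4B (ENSG00000184588) is on the plus strand of chromosome 1, and its window is chr1:65792645-65792894, the 250 bases before the canonical start site. Both windows hold 0 bases of annotated exon in GENCODE 44. The window before the canonical start of PDE1C lay wholly within annotated exons and is not printed. Capitals mark GCGTG, or CACGC where it is on the other strand, which is the core of the xenobiotic response element bound by the aryl hydrocarbon receptor.
PDE1C: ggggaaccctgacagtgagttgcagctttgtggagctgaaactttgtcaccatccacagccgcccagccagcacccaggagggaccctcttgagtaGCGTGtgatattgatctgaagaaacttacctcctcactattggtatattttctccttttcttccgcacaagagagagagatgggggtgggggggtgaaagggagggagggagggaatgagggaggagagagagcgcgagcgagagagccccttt
PDE4B: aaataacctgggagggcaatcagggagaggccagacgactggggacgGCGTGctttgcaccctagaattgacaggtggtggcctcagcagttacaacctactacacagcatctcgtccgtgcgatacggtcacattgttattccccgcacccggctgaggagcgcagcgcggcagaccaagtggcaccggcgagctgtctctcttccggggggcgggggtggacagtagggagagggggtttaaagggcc
The core stood once in each, at position -154 from the start site in PDE1C and at -203 in PDE4B. The window before the canonical start of PDE1C, which is not printed, held no core on either strand.

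Start-site windows on chromosome 8, where PDE7A lies, were left out. For the other 9 members RefSeq gave 41 windows of 300 bases (250 before the start site and 50 after it). On either strand GCGTG was present in 20 of the 41, in 5 of the 6 windows of PDE1C and in 2 of the 6 of PDE4B. Over all genes outside chromosome 8 it was present in 36.5% of 35116 windows. TGACGTCA, the full cAMP response element, was found in 1 member window, at PDE4A, where it reached across the start site, against 1.85% of all windows. Several windows of one gene overlap each other, and these matches describe letters only.

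The libraries held 16168260 to 24917838 counts. Batch 4 stood apart from batches 2 and 3: between controls the chi-square per gene was 3.66 for batch 2 with batch 3 and at least 35 for either with batch 4. Across all 16030 genes tested with edgeR's quasi-likelihood test, the batch as a block and Benjamini-Hochberg adjustment, 13.5% were called at an adjusted p under 0.05 in EC vs. control, 4.54% in PG/VG vs. control, 0.855% in EC vs. PG/VG and 40.6% in batch 4 vs. batches 2 and 3. Of the 2157 genes called in EC vs. control 60% were higher, and with scaling by library size only 1863 of 2349 were. That scaling moved the median log2 fold change of all genes by less than 0.1. The epithelial label was checked on 8 markers: 6 were measured, KRT8 and KRT18 among them, while KRT5 and TP63, which mark airway basal cells, never passed 10 counts. Leukocyte markers summed to at most 0.386 CPM (counts scaled to a common library size with TMM factors), and PTPRC, CD68 and CD3E never passed 10 counts.

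PDE1C, the calcium- and calmodulin-regulated enzyme with both substrates, was lowest in EC, intermediate in PG/VG and highest in the control within every batch. In the control it stood at 110 CPM in batch 2, 105 in batch 3 and 52.4 in batch 4. In PG/VG the levels were 80.8, 70.3 and 39.8 CPM in the same order of batches. In EC they were 50.9, 53.9 and 23.9 CPM. Across batches the conditions overlapped, because the control library of batch 4 was about as high as the EC libraries of batches 2 and 3. Behind these levels were 482 to 1973 counts per library, so counting error was small beside the spread between batches.

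Set against the control of its own batch, PDE1C in EC was at 46.3%, 51.3% and 45.6% of the level in batches 2, 3 and 4. In PG/VG it was at 73.5%, 66.9% and 75.9%. EC against PG/VG gave 62.9%, 76.6% and 60.1%. The ordering was therefore the same in 3 of 3 batches, although batch 4 started from a lower level. The fitted log2 fold change was -1.06 ± 0.08 (SE) in EC vs. control, a level 2.09-fold lower, and -0.47 ± 0.08 in PG/VG vs. control, 1.39-fold lower. Between EC and PG/VG it was -0.59 ± 0.08. Both treatments were compared with the same 3 control libraries. In bulk RNA, fewer cells of a kind and less RNA per cell cannot be told apart.

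**Figure D1:**
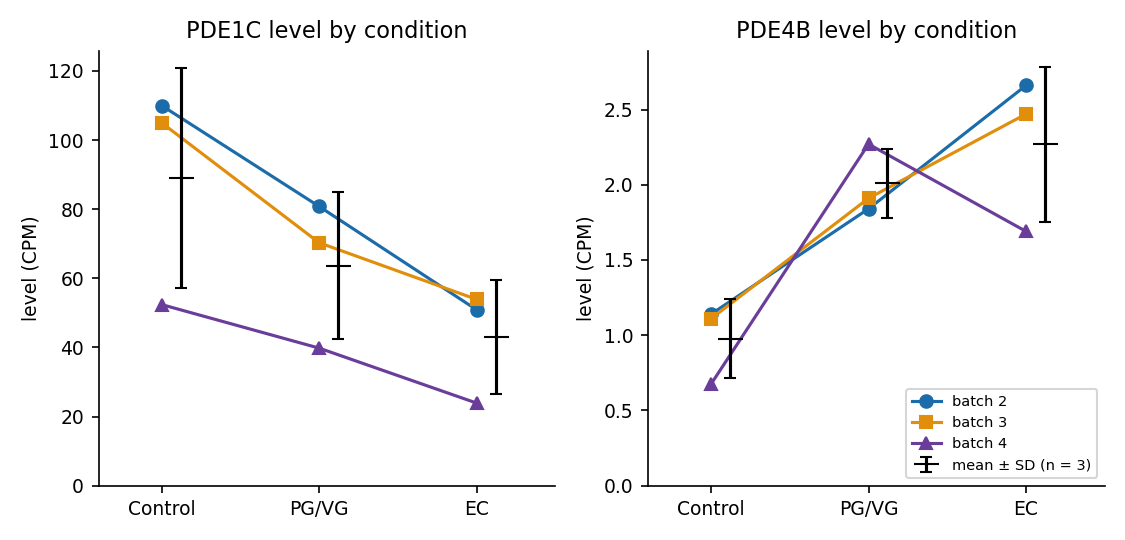
Levels of PDE1C (left) and PDE4B (right) in CPM on linear axes from 0, by condition, with 1 line per batch and, in black, the mean ± SD of 3 libraries. PDE1C falls from control to EC along each line, with batch 4 the lowest line, while all PDE4B libraries of PG/VG and EC (1.69 to 2.66 CPM) lie above the control libraries (0.675 to 1.14 CPM).

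Among the 9633 genes tested whose control mean was at least 10 CPM, PDE1C had the 4th lowest log2 fold change in EC vs. control and the 3rd lowest in EC vs. PG/VG. In PG/VG vs. control it was the 46th lowest. Over all 16030 genes tested, low ones included, the positions were 48, 232 and 534 in EC vs. control, EC vs. PG/VG and PG/VG vs. control. These positions describe the gene that was picked and carry no test.

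PDE1C was also lower in batch 4, although the genes were chosen from the values of these same libraries. With the condition in the model, the log2 fold change of batch 4 vs. batches 2 and 3 was -1.03 ± 0.07 (SE), 2.04-fold lower. Batch 4 is a single batch, so this SE does not measure the spread between batches, and no p-value is given. The difference between batches was thus of a size similar to that between EC and control, and it was lower in 3 of 3 conditions. Leaving out each library in turn kept it between -1.08 and -0.98. Markers moved with the same contrasts. The 8 epithelial markers summed to 1776 to 2844 CPM in the control and 1460 to 2287 CPM in EC, and 4 of 6 tested were called lower in batch 4 and 3 of 6 (KRT7, KRT8 and KRT18) in EC. The 5 smooth muscle markers summed to 199 to 532 CPM in the control, 169 to 446 in PG/VG and 153 to 377 in EC, with TAGLN called lower in EC and, with CNN1, in batch 4, ACTA2 called higher in batch 4, and DES never above 10 counts. The 5 mesenchymal markers summed to 4782 to 6677 CPM in the control, 4379 to 6401 in PG/VG and 3313 to 5179 in EC, and the calls went both ways: FN1 was lower and PDGFRB higher in EC, VIM was lower and COL1A1 and PDGFRB higher in PG/VG, and FN1, COL1A1 and PDGFRB were lower in batch 4. The 3 endothelial markers summed to 4.24 to 7.77 CPM and the 4 ciliated and secretory markers to 0.248 to 1.04 CPM over all libraries. The part of these differences in the PDE1C result was not tested.

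Levels can be compared between genes only per length, here as CPM per kilobase of annotated exon. On this scale PDE8A, a cAMP enzyme of high affinity, had the highest control level at 8.80 ± 1.23 (SD, n = 3), followed by PDE1C at 6.31 ± 2.26. PDE7A, also a cAMP enzyme, was at 2.20 ± 0.10 and PDE4A at 1.49 ± 0.12. PDE8A was above PDE1C in each control library, although the ranges of the genes over the 3 libraries overlapped: PDE1C over PDE8A was 0.805, 0.795 and 0.502. Divided by the length of the canonical transcript instead, PDE1C was at 20.5 and PDE8A at 17.4, and the order of this pair was reversed in the mean. PDE4D, at 0.87 per kilobase of exon, and PDE5A, at 0.38, came next. PDE4B (0.11 ± 0.03) and PDE10A (0.10 ± 0.01) were neighbours within their spread, and PDE3A and PDE1A were the lowest.

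The share of PDE1C in the summed per-length level of the 10 genes was 33.9%, 33.7% and 23.2% in the control libraries of batches 2, 3 and 4. It was 27.7%, 25.8% and 16.9% in PG/VG, and 20.2%, 20% and 10.9% in EC. The other 9 genes together were at 14.0 ± 1.52 (SD, n = 3) CPM per kilobase in the control, 14.4 ± 0.54 in PG/VG and 14.4 ± 0.72 in EC. These SDs are spreads between batches. In batches 2, 3 and 4 the sum of the others was 15.1, 14.6 and 12.3 in the control and 14.2, 15.2 and 13.8 in EC. In PG/VG it was 14.9, 14.3 and 13.8. The smaller share in EC thus went with a lower level of PDE1C in every batch. The sum of the others was lower than the control in batch 2 and higher in batches 3 and 4. With canonical transcript lengths the mean shares were 43.2%, 35.0% and 26.5%.

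**Figure D2:**
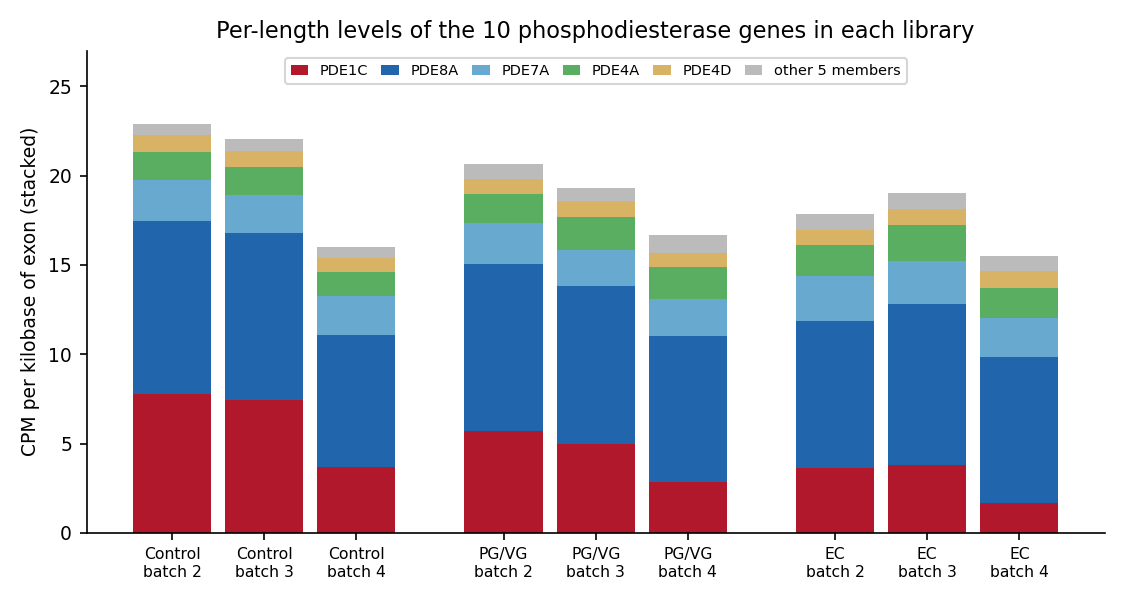
Stacked bars from 0 give the level of each phosphodiesterase gene in CPM per kilobase of annotated exon in the 9 libraries, grouped by condition, with the 5 least abundant members pooled. The PDE1C segment at the base is shorter in EC than in the control of the same batch, while the segments above it sum to 12.3 to 15.2 in every library.

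Of the cAMP-specific members, PDE4B had the largest difference from the control after both treatments, and it was higher. Its control level was 1.14, 1.11 and 0.675 CPM in batches 2, 3 and 4. In PG/VG it was at 1.84, 1.91 and 2.27 CPM. In EC it was at 2.66, 2.47 and 1.69 CPM. No library of either treatment overlapped the control, whereas EC and PG/VG overlapped each other. The log2 fold change was 1.22 ± 0.28 (SE) for EC and 1.06 ± 0.29 for PG/VG, each against the control, on 12 to 67 counts per library. EC vs. PG/VG was 0.16 ± 0.24, with EC higher in 2 of 3 batches. With batches 2 and 3 only, PG/VG vs. control came to 0.71, since batch 4 had the largest PG/VG difference (337% of its control, against 161% and 172%). For PDE4B the log2 fold change of batch 4 vs. batches 2 and 3 was -0.26 ± 0.23. With these low counts and a single batch 4, nothing is read from it, and it was not tested.

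PDE4A, a cAMP enzyme that is present in many tissues, was slightly higher after both treatments. It was measured at 10.6, 10.5 and 9.17 CPM in the control, 11.2, 12.6 and 11.9 in PG/VG, and 11.8, 13.7 and 11.5 in EC. All 6 treated libraries were above all 3 control libraries. The log2 fold changes were 0.29 ± 0.11 in EC and 0.24 ± 0.12 in PG/VG, each relative to the control. PDE4D, its widely expressed paralogue, was at 12.7 to 15.4 CPM in the control, 13.1 to 14.3 in PG/VG and 13.3 to 15.9 in EC, and the 3 ranges overlapped.

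PDE8A ranged from 59.2 to 77.3 CPM in the control, from 65.5 to 74.8 in PG/VG and from 65.4 to 71.9 in EC. Its log2 fold change in EC vs. control was -0.05 ± 0.08, and with library size as the only scaling the sign turned, at 0.01. PDE7A was at 22.6 to 24.5 CPM in the control, 21.2 to 24.1 in PG/VG and 22.7 to 26.9 in EC. Within batches it was lower than the control in 3 of 3 PG/VG libraries and higher in 3 of 3 EC libraries, yet the log2 fold changes were only -0.05 ± 0.09 and 0.10 ± 0.09. For both genes every difference between conditions was smaller than 2 SE. Exons of PDE7A share 7.04% of their length with other genes.

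Of the remaining members with both substrates, PDE10A was at 3.68 to 4.40 CPM in the control, 3.81 to 5.19 in PG/VG and 3.73 to 6.09 in EC. It was higher in EC in 3 of 3 batches (log2 fold change 0.33 ± 0.18), but its ranges overlapped. PDE3A, a cAMP enzyme inhibited by cGMP, had few counts. It had 14, 3 and 13 counts in the control libraries of batches 2, 3 and 4, 16, 8 and 45 in PG/VG, and 15, 8 and 41 in EC. Its log2 fold changes were 0.61 ± 0.42 for EC and 0.68 ± 0.42 for PG/VG, but in batch 2 both treatments were below the control. Leaving out single libraries moved the value in EC vs. control between -0.08 and 1.30.

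PDE1A, the other calmodulin-regulated enzyme listed, had 0 to 8 counts per library and was not tested. It had 1, 0 and 0 counts in the control, 3, 1 and 3 in PG/VG and 8, 4 and 0 in EC. A count of 0 allows up to 0.186 CPM in the control of batch 3, taking 3 counts as the floor for counting error. PDE5A, the only cGMP-specific member, was at 3.37 to 3.77 CPM in the control, 3.50 to 4.26 in PG/VG and 3.52 to 3.97 in EC. Its log2 fold changes were 0.05 ± 0.18 for EC and 0.14 ± 0.18 for PG/VG, while the ranges overlapped. Exons of PDE5A share 9.21% of their length with a gene on the opposite strand. Reads that overlapped several genes were left out by the authors, and whether that applied to this stretch depends on the strand setting, which is not given in the sources used here.

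**Figure D3:**
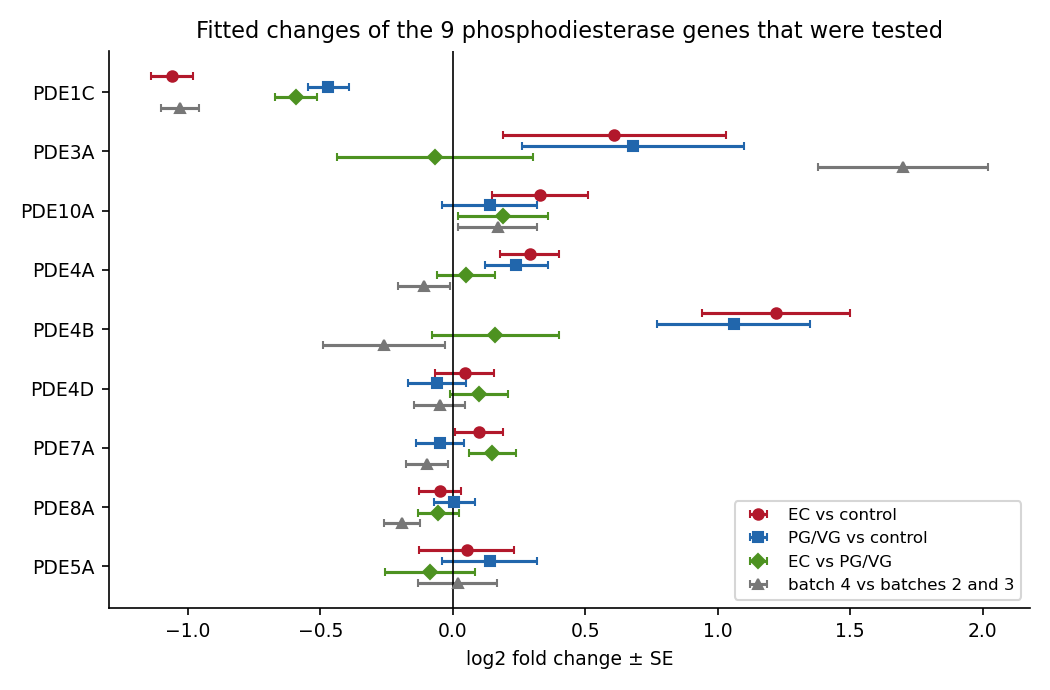
Points give fitted log2 fold changes and bars their SE for the 9 phosphodiesterase genes tested, in EC vs. control (circles), PG/VG vs. control (squares), EC vs. PG/VG (diamonds) and batch 4 vs. batches 2 and 3 (triangles). PDE1C lies to the left in all 4 contrasts, PDE4B to the right in both contrasts with the control, and PDE3A to the right in batch 4, at 1.70 ± 0.32.

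Of the 9 members tested, 2 passed an adjusted p of 0.05 when EC was set against the control, and the same 2 did for PG/VG (PDE1C lower and PDE4B higher), beside 13.5% and 4.54% of all genes. In PG/VG vs. control PDE4B no longer passed when any 1 of the 3 control libraries or the PG/VG library of batch 2 or 4 was left out, with log2 fold changes of 0.74 to 1.26 over the 9 fits. In EC vs. PG/VG 1 did (PDE1C lower), beside 0.855%. The choice of members used these contrasts, so nothing is read from those counts. The median log2 fold change of the 9 was 0.10 for EC and 0.14 for PG/VG against the control, beside 0.01 over all genes in both.

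Against batches 2 and 3, batch 4 had 3 of the 9 members passing the test, beside 40.6% of all genes, a share near the background. The members were chosen from these same libraries, so nothing more is read from that count. PDE1C was lower, as described above. PDE3A was higher by 1.70 ± 0.32 (SE) on the log2 scale. Its PG/VG and EC libraries of batch 4 had 45 and 41 counts, while the control library had 13, close to the 14 of batch 2. PDE8A was lower by a small amount, -0.19 ± 0.07. Leaving out single libraries moved the PDE8A value between -0.26 and -0.11, and its call was lost in 5 of the 9 fits. The call was also lost with scaling by library size only (-0.15). Batch 4 is a single batch, so no p-value is given for these members.

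A further 14 genes of the superfamily were listed, of which 6 passed the filter on low counts: PDE2A, PDE6A, PDE6D, PDE6G, PDE8B and PDE9A. PDE9A, a cGMP-specific enzyme of high affinity, rose in EC. It had 5, 3 and 7 counts in the control libraries, 19, 19 and 16 in PG/VG and 27, 34 and 20 in EC. The treated libraries did not overlap the control. No control library reached 10 counts, so PDE9A passed the filter only through the treated libraries, which limits its tests against the control. Its log2 fold change in EC vs. control was 1.92 ± 0.42 (adjusted p = 0.00365 over all genes, edgeR's quasi-likelihood test), higher in 3 of 3 batches, and without the control library of batch 3 the adjusted p from edgeR was 0.0536. In PG/VG vs. control it was 1.43 ± 0.44 and did not pass (adjusted p = 0.0637, edgeR), and EC vs. PG/VG was 0.49 ± 0.33 (adjusted p = 0.569, edgeR). DESeq2 gave no adjusted p for PDE9A in EC vs. control. PDE9A had a low level, at 0.30 CPM on average in the control and 1.17 in EC.

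None of the other 5 passed in any comparison of treatments by edgeR or, where DESeq2 gave an adjusted p, by DESeq2, and 0 had an unadjusted p under 0.05 by edgeR. PDE6D, which carries prenylated proteins, was the most abundant of them at 19.3 to 25.4 CPM. PDE2A, a cAMP and cGMP enzyme stimulated by cGMP, differed by batch: it was at 2.73 to 3.65 CPM in batch 4 and 0.57 to 1.62 in batches 2 and 3, a log2 fold change of 1.85 ± 0.24 (adjusted p = 1.44e-06, edgeR's quasi-likelihood test). PDE6A, a subunit of the photoreceptor enzyme, was lower in batch 4 by -0.83 ± 0.33 (adjusted p = 0.0462, edgeR) on 7 to 34 counts. Batch 4 is a single batch, so these 2 batch p-values do not measure the spread between batches. PDE6G had 14 to 42 counts and PDE8B 13 to 27, with 51.6% of the exon length of PDE8B shared with other genes.

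Around the phosphodiesterases, 123 genes that make, sense or carry cyclic nucleotide signals were listed, the 14 above among them, and 92 were tested. The lists were chosen with earlier results of these data known, so their shares are descriptions only. In EC vs. control 12 rose and 6 fell by edgeR's quasi-likelihood test, which is 19.6% of the 92 beside 13.5% of all genes. The 12 include PDE9A and GNAO1, which passed the filter only or mainly through treated libraries. The median log2 fold change of the list was 0.05, against 0.01 over all genes. In PG/VG vs. control 3 rose and 0 fell (3.26%), and 27 had an unadjusted p under 0.05. In EC vs. PG/VG 1 rose and 0 fell. By batch 24 were higher and 18 lower in batch 4, 45.7% of the list beside 40.6% of all genes.

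Of the 18 cyclases listed, 8 were tested and 2 rose in EC. ADCY6, a membrane adenylyl cyclase inhibited by calcium, was at 81.2, 82.6 and 85.0 CPM in the control of batches 2, 3 and 4, at 97.4, 103 and 103 in PG/VG and at 98.3, 101 and 115 in EC. Every treated library was above every control library. The log2 fold change was 0.33 ± 0.07 in EC (adjusted p = 0.00308, edgeR) and 0.29 ± 0.07 in PG/VG (adjusted p = 0.0194, edgeR), where the call was lost when any 1 of the control or PG/VG libraries was left out. ADCY1, which calmodulin stimulates, rose in EC by 0.35 ± 0.11 (adjusted p = 0.0413, edgeR).

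Of the receptors that couple to Gs and so raise cAMP, VIPR1 rose in EC, and it was the 1 pathway gene called in EC vs. PG/VG. VIPR1, the receptor for vasoactive intestinal peptide, was at 1.72, 2.35 and 6.92 CPM in the control, 3.65, 2.90 and 6.43 in PG/VG and 8.13, 7.58 and 12.1 in EC. EC was the highest condition in each batch, and the batch 4 library was the highest of each condition. Its log2 fold change was 1.42 ± 0.20 in EC vs. control (adjusted p = 9.26e-05, edgeR) and 1.14 ± 0.19 in EC vs. PG/VG (adjusted p = 0.00328, edgeR), and without the PG/VG library of batch 4 the adjusted p of EC vs. PG/VG was 0.0696 by edgeR. Exons of VIPR1 share 11.4% of their length with an antisense gene.

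Of 7 G protein alpha subunits tested, 3 were called in EC vs. control. GNAO1, an inhibitory subunit, rose by 2.00 ± 0.45 (adjusted p = 0.00508, edgeR) from 3, 11 and 1 counts in the control to 34, 32 and 17 in EC. Of its control libraries only that of batch 3 reached 10 counts, so it passed the filter mainly through treated libraries. GNAL, a stimulatory subunit known from olfactory neurons, rose by 0.71 ± 0.22 (adjusted p = 0.0346, edgeR), with 29.1% of its exon length shared with other genes. GNAI1, an inhibitory subunit, fell by 0.26 ± 0.08 on the log2 scale (adjusted p = 0.0245, edgeR). GNAS, the ubiquitous stimulatory subunit, was at -0.06 ± 0.07 and did not pass (adjusted p = 0.578, edgeR).

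Of the effectors of the second messengers, 1 of 16 tested rose in EC. That gene was PRKAR2B, a regulatory subunit of protein kinase A, with a log2 fold change of 0.63 ± 0.17 (adjusted p = 0.0165, edgeR). RAPGEF3, the cAMP-activated exchange factor EPAC1, was called in PG/VG only, at 0.78 ± 0.22 (adjusted p = 0.0424, edgeR), but EC vs. PG/VG was -0.55 ± 0.20 and did not pass (adjusted p = 0.217, edgeR). Among 15 anchoring proteins tested, AKAP5 rose by 0.34 ± 0.11 (adjusted p = 0.0366, edgeR) in EC and by 0.37 ± 0.11 (adjusted p = 0.0472, edgeR) in PG/VG. PALM2AKAP2 fell by 0.42 ± 0.07 in EC (adjusted p = 0.000399, edgeR), and EZR, which links membranes to actin and anchors protein kinase A, fell by 0.28 ± 0.07 (adjusted p = 0.0056, edgeR). The 2 cyclic nucleotide exporters tested were not called by edgeR in any comparison of treatments, with 1 at an unadjusted p under 0.05 in EC and 1 in PG/VG against the control.

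CREB, the factor that protein kinase A phosphorylates, was listed together with its relatives, its coactivators and genes known as targets, 21 genes in all, of which 20 were tested. In EC 3 rose and 2 fell. NR4A3 rose by 1.51 ± 0.37 (adjusted p = 0.00879, edgeR), NR4A2 by 1.04 ± 0.33 (adjusted p = 0.0376, edgeR) and AREG, an EGF receptor ligand, by 0.54 ± 0.13 (adjusted p = 0.00823, edgeR). BDNF, a neurotrophin, fell by 0.46 ± 0.10 (adjusted p = 0.00556, edgeR) and ATF1, a relative of CREB, by 0.25 ± 0.08 (adjusted p = 0.0419, edgeR). CREB1 was at -0.12 ± 0.08 and did not pass (adjusted p = 0.305, edgeR). Of 7 calcium and calmodulin genes, which bear on PDE1 enzymes, 1 fell: PPP3CB, a catalytic subunit of calcineurin, by 0.42 ± 0.08 (adjusted p = 0.000775, edgeR). CALM2 and CALM3, which encode calmodulin, were at -0.16 ± 0.07 and 0.02 ± 0.07 in EC vs. control and did not pass (adjusted p = 0.13 and 0.862, edgeR).

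**Figure D4:**
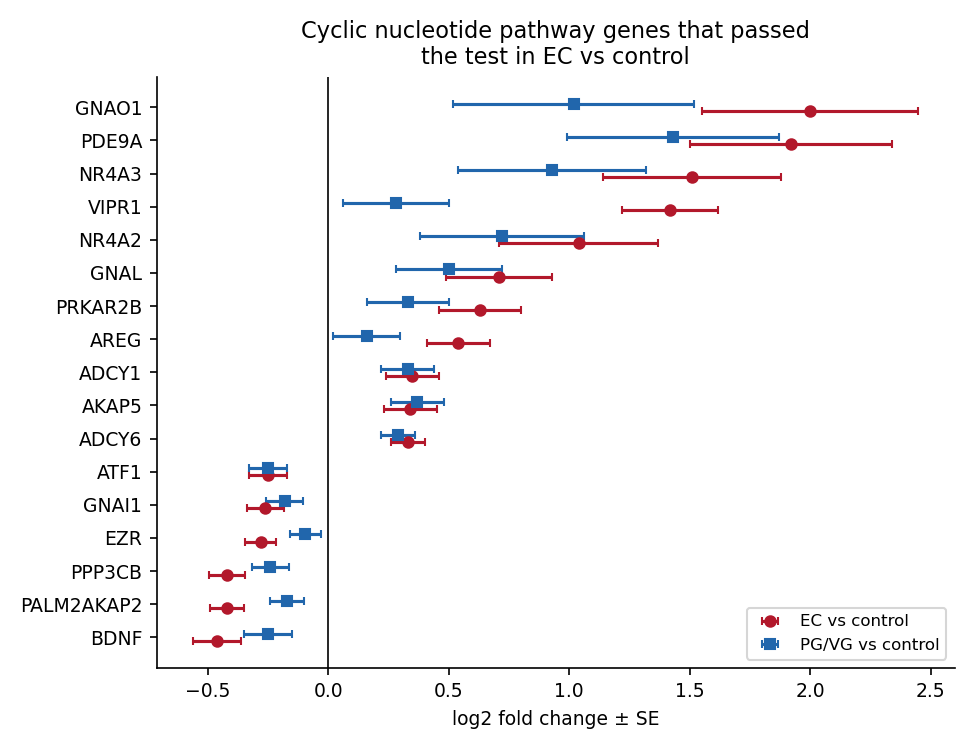
Points give the log2 fold change and bars the SE of 17 of the 18 cyclic nucleotide pathway genes called in EC vs. control, for EC (circles) and PG/VG (squares), each against the control. The PG/VG value has the same sign as the EC value for each gene shown, and of these only ADCY6 and AKAP5 passed the test in PG/VG. The same control libraries stand behind both series.

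Of these 18 calls in EC vs. control, 6 were kept when each library was left out in turn, and 12 were lost in at least 1 such fit. Among those kept were ADCY6, PALM2AKAP2, PPP3CB and VIPR1. GNAO1 was kept too, but it passed the filter mainly through treated libraries, so nothing is read from that. NR4A3 and AREG, which were higher in batch 4, were lost without the control or the EC library of that batch (adjusted p up to 0.183 and 0.243, edgeR). BDNF was lost without the control or the EC library of batch 3 (adjusted p up to 0.0718, edgeR), and EZR without the control of batch 3 (adjusted p = 0.0684, edgeR). ADCY1, AKAP5, GNAL, GNAI1, PRKAR2B, NR4A2 and ATF1 were lost in 4 to 6 of the 9 fits, with adjusted p up to 0.251 by edgeR. None of the 3 calls in PG/VG was kept in every fit.

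The genes whose levels followed PDE1C most closely were sought among 9687 genes with a mean of at least 10 CPM, by Pearson's r of log2 CPM over the 9 libraries after the mean of each batch was taken off. GART, a purine synthesis enzyme, had r = 0.993, PRR11 had 0.991, the scaffold gene DLG1 and the cytokinesis gene ECT2 had 0.99, and the cysteinyl-tRNA synthetase gene CARS1 had 0.989. Their falls in EC vs. control were smaller than that of PDE1C, from -0.46 for DLG1 to -0.27 for GART on the log2 scale. MANEAL and FHOD1 (both -0.994) and POGLUT2 (-0.989) ran most opposite. In all, 91 genes had r over 0.95, and the 9 points share conditions and libraries. Of the members over this level, PDE4A had r = -0.792 with PDE1C, PDE7A -0.482, PDE4D -0.235 and PDE8A 0.315.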

How the data were processed

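Human BEAS-2B RNA-seq was used, 9 libraries in 3 groups of 3, grouped by the treatment and replicate labels. Per the study's methods, the authors used fastp for trimming, STAR for alignment to GRCh38.p12 and featureCounts (Subread 2.0.4) for exons of the Ensembl annotation, left out reads that mapped to several places or overlapped several genes, and deposited raw counts for 63187 genes that were not filtered, normalized or adjusted for batch. The strand setting is not given in the sources used here. Symbols, positions and lengths came from GENCODE 44 on GRCh38, which held 62666 of the Ensembl identifiers. The start-site windows came from RefSeq, and those on chromosome 8 were left out.

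Genes that reached 10 counts in 3 or more libraries (16030) were fitted in R 4.3.3 with edgeR 4.0.16: TMM, robust quasi-likelihood fit, condition plus batch as a block over all 9 libraries, Benjamini-Hochberg adjustment over all genes tested, threshold 0.05. The SE was the absolute log2 fold change divided by the square root of the F statistic. TMM factors lay between 0.971 and 1.0453, and totals are given in the report. The labels state that the replicate number is the batch. Deviations from the condition mean correlated at 0.401 to 0.765 between libraries of the same number and at -0.618 to 0.512 between others. The negative values all involved batch 4. Within batches 2 and 3, libraries of the same number correlated at 0.401 to 0.488 and those of different number at 0.347 to 0.512. The labels call the libraries replicates and the study's methods call them biological replicates, and p-values between conditions measure the spread between them. Those of batch 4 vs. batches 2 and 3 do not measure the spread between batches. No pair of replicates was a duplicate. The scripts were tested on simulated data.

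Named genes were the members, the other superfamily genes that passed the filter, up to 3 called genes in each direction per pathway list and comparison of treatments, the listed markers, and the 5 genes most like and 3 most opposite to PDE1C. CREB1, GNAS, CALM2 and CALM3 were added after their values were seen. Some listed genes are counted but not reported here by name. The members and lists were chosen with earlier results of these data known. Alternatives were other scalings and filters, DESeq2 1.42.0, ComBat-Seq (sva 3.50.0) before DESeq2, pairs of groups alone, no batch block and single libraries left out.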

Additional observations from a re-analysis of the deposited data

Results flagged for a closer look

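PDE7A was flagged because its EC and PG/VG libraries lay on opposite sides of the control in every batch: it was higher in 3 of 3 EC libraries, with a mean log2 ratio to the control of its batch of 0.096, and lower in 3 of 3 PG/VG libraries, with a mean of -0.05. In batch 4 both were nearly equal to the control, at 100% of its level in EC and 99.1% in PG/VG. The difference was not tested, since PDE7A was chosen with these contrasts in view.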

How the results depend on the processing

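The log2 fold change of PDE1C kept its direction under every alternative run, from -1.15 to -1.03 in EC vs. control, -0.53 to -0.40 in PG/VG vs. control and -0.67 to -0.54 in EC vs. PG/VG when single libraries were left out, and at -1.05, -0.49 and -0.57 without the replicate block. Without that replicate block 16, 1 and 1 genes were called in the 3 comparisons, none of them among the other pathway genes (0, 0 and 0), and neither PDE1C nor PDE4B passed. Leaving out single libraries gave 1162 to 2172 genes in EC vs. control, 192 to 1084 in PG/VG vs. control and 32 to 208 in EC vs. PG/VG, and 9 to 18, 0 to 8 and 0 to 2 pathway genes. Batches 2 and 3 only, an alternative chosen after seeing the data, gave 1216, 324 and 80 genes and 10 and 1 pathway genes in EC and PG/VG vs. control. In PG/VG vs. control the pathway count was 5 with a filter of at least 1 count, 1 with DESeq2 and the batch in the model, 10 with the 2 groups alone and 12 after ComBat-Seq, where 1179 and 1736 genes were called by the last 2. In EC vs. PG/VG 309 genes and 3 pathway genes were called with at least 1 count, 318 genes with the 2 groups alone, and 658 genes and 3 pathway genes after ComBat-Seq. The control level of PDE1C per kilobase was 6.31 over all exons, 10.1 for the longest transcript and 20.5 for the canonical one. The cause of these differences was not tested. With few counts, PDE3A, PDE4B, PDE9A and GNAO1 were measured with less precision than PDE1C.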
